A study of Homo sapiens with 4 samples.

Results

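The FAIRE sites described here lie within 50 kb of the bodies of 10 genes of the Wnt and β-catenin pathway, namely CTNNB1, APC, AXIN2, NKD1, LEF1, TCF7, LGR5, ZNRF3, RNF43 and WNT4. FAIRE-seq sequences the DNA that stays soluble after formaldehyde fixation because it carries few nucleosomes, as active promoters and enhancers do. It had been applied to H295R/TR SF-1 cells, derived as 1 subclone from the adrenocortical tumour line H295R. In them doxycycline induces SF-1, a nuclear receptor and regulator of steroid synthesis. The 4 samples were 1 FAIRE library and 1 input DNA library from cells with basal SF-1 expression, and the same from cells in which SF-1 was overexpressed through doxycycline given for 3 days. Both conditions carried the inducible construct, and doxycycline itself was present in the overexpression condition alone. Of 34423 basal and 31219 overexpression sites, 63 and 49 fell in the windows of the 10 genes, 112 in all. With 1 library for each condition there is no replicate check and no test between conditions, intervals (exact Clopper-Pearson, 95%) cover counting error only, and depth is unknown. A site missing from a list was not called there and may still be accessible. As a check of the cell line, 6 adrenocortical marker genes chosen after the data were seen were examined. An own-promoter site was present for 3 of them in the basal list (NR5A1, CYP17A1, CYP21A2) and for 4 in the overexpression list (CYP11A1, CYP17A1, CYP21A2, MC2R), and HSD3B2 had none in either. Of all coding genes, 46.2% and 48.5% had one in the basal and overexpression lists. With 6 genes, these counts do not set the markers apart from coding genes, and the check does not show the cell type.

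In the absence of a Wnt signal, β-catenin, the product of CTNNB1, is held low by a destruction complex whose scaffolds are APC and AXIN2. Wnt ligands such as WNT4 block that complex through frizzled receptors, so that β-catenin enters the nucleus and acts on the DNA-bound factors LEF1 and TCF7. The pathway also writes its own brakes: AXIN2, NKD1, ZNRF3 and RNF43 are target genes whose products lower the signal, ZNRF3 and RNF43 by removing frizzled from the membrane, while LGR5, another target, binds R-spondins and relieves that removal. β-catenin signalling is constitutively active in H295R cells and has a role in growth and zonation of the adrenal cortex.

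Sequences of 9 sites show what the lists held at these genes. All are given 5′ to 3′ on the plus strand of GRCh37. In the first 5 and the last, capitals mark TCF/LEF motifs (CTTTGAT or CTTTGAA) and SF-1 motifs (CAAGGTCA or CAAGGCCA), each on either strand. The first 5 were the earliest in their lists among own-promoter and condition-only sites with a motif, and comprised 2 basal-only introns, 1 overexpression-only intron and 2 shared promoters.
NKD1 intron, basal-only, chr16:50651201-50651500: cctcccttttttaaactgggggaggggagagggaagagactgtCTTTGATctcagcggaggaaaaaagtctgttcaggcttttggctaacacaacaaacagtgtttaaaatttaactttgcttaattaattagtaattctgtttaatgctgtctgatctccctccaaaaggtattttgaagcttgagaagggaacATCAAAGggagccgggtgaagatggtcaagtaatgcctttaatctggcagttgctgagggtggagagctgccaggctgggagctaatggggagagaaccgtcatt
ZNRF3 intron, basal-only, chr22:29319876-29320175: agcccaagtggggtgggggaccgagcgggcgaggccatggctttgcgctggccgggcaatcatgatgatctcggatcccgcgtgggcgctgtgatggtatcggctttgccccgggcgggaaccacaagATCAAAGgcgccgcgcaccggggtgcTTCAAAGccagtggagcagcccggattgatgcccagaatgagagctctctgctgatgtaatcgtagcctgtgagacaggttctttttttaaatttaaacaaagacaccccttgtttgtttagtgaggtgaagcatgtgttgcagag
ZNRF3 intron, overexpression-only, chr22:29401051-29401349: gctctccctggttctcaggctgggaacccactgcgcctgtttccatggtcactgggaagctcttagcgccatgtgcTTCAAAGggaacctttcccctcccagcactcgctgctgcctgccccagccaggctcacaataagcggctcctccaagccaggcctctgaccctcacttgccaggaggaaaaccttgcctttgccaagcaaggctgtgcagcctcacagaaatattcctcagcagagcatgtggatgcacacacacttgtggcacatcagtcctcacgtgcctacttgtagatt
RNF43 internal promoter, shared, chr17:56441501-56441749: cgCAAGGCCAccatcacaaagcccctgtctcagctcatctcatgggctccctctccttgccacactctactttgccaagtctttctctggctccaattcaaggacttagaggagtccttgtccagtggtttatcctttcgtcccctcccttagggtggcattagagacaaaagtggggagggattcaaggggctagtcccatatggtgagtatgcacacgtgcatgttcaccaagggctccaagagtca
ZNRF3 internal promoter, shared, chr22:29314101-29314399: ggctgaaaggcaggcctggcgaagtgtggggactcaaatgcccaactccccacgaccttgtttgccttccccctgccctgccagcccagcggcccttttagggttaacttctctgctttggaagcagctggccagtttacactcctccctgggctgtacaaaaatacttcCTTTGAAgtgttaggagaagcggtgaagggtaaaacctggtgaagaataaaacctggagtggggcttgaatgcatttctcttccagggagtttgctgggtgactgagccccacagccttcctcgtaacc

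The other 4 were chosen after their values were seen. They are own-promoter sites found in the overexpression list alone, at CTNNB1, APC and AXIN2, and the ZNRF3 intron site whose deposited interval held both motifs. Where a site ran into an annotated exon, only the bases before it are printed. Capitals in the CTNNB1 and APC sequences mark the GC box (GGGCGG, or CCGCCC on the other strand), which was present in 45% of 35116 RefSeq promoters of 300 bases (GRCh38) and in 29.4% of overexpression sites. In the AXIN2 sequence they mark the TCF/LEF motif.
CTNNB1 promoter, overexpression-only, chr3:41240801-41240879: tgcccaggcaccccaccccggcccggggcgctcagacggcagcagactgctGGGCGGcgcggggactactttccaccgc
APC downstream promoter, overexpression-only, chr5:112073401-112073581: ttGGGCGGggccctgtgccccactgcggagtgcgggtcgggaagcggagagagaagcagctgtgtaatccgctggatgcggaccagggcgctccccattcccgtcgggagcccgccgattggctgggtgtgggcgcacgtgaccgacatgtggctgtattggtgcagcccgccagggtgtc
AXIN2 internal promoter, overexpression-only, chr17:63554901-63555099: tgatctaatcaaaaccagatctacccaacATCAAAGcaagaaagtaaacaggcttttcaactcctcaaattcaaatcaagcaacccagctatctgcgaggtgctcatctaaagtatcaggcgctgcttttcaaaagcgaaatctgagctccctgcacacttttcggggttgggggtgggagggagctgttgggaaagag
ZNRF3 intron with both motifs, basal-only, chr22:29361251-29361499: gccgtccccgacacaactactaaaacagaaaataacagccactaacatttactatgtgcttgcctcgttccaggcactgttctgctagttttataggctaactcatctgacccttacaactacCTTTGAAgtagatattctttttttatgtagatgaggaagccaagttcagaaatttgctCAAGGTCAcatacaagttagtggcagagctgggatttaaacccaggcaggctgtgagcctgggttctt

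To see how the sites were divided between the conditions, an overlap of 1 bp or more with any site from the other condition made a site shared, and a site without one was condition-only. In the basal list 34 of 63 sites were shared (54%, 40.9 to 66.6) and 29 were basal-only (46%), where 45.8% of all basal sites were basal-only. In the overexpression list 34 of 49 were shared (69.4%, 54.6 to 81.7) and 15 were overexpression-only (30.6%, 18.3 to 45.4), against 40.3% of all overexpression sites. There were 0.778 overexpression sites for each basal site near the 10 genes (0.524 to 1.15) and 0.907 over all nuclear sites. The interval of this ratio treats the counts of the lists as separate, although 34 sites of each overlap. All these intervals hold the value of the whole list. ZNRF3 alone contributed 11 of the 29 basal-only sites, and without it 18 of 44 basal sites (40.9%) and 12 of 38 overexpression sites (31.6%) were condition-only.

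**Figure D1:**
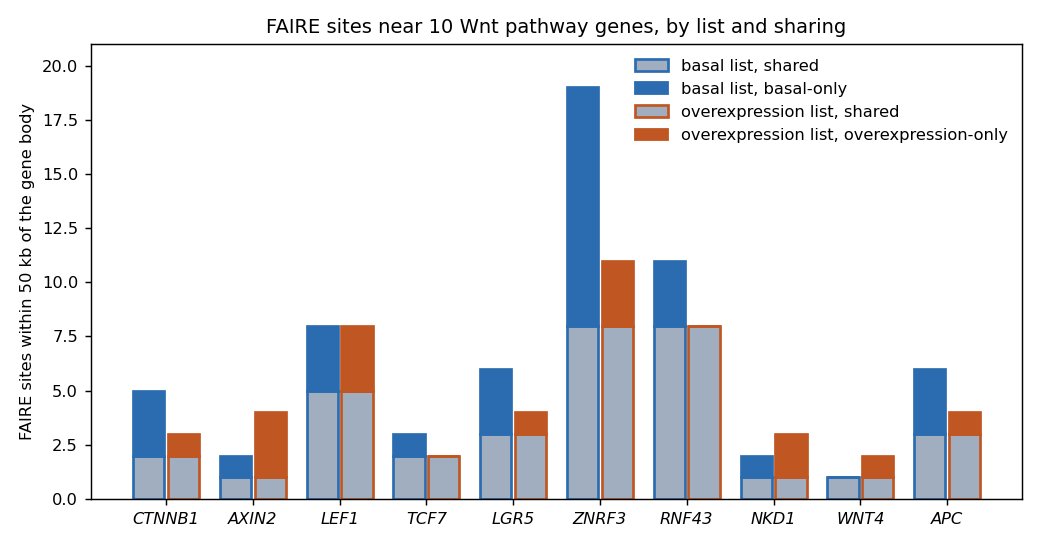
Number of FAIRE sites within 50 kb of each gene body (y axis) for each of the 10 genes (x axis), in the basal list (left bar, blue) and the overexpression list (right bar, orange). The grey part of a bar is shared sites and the coloured part condition-only sites, and the tallest bar is that of ZNRF3, with 19 basal sites of which 11 were basal-only.

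All 10 genes had a site in each list, as had 86.3% (basal) and 86.5% (overexpression) of 20163 protein-coding genes. A basal-only site was present near 9 of the genes, all but WNT4 (60.7% of coding genes), and an overexpression-only site near 8, all but TCF7 and RNF43 (60.6%). These shares were not adjusted for window length, and a longer window can hold more sites. Member windows ran from 127 kb (WNT4) to 274 kb (ZNRF3), where coding genes had a median of 127 kb and an upper quartile of 171 kb. Sites per window ranged from 1 (WNT4) to 19 (ZNRF3) under basal SF-1 and from 2 (TCF7, WNT4) to 11 (ZNRF3) in the overexpression list. Per 100 kb of window, ZNRF3 stood at the percentile 96.5 of coding genes for basal and 81.9 for overexpression sites, and RNF43 at 95.8 and 88. NKD1 stood at 32 and 40.9, and WNT4 at 22.6 and 42.9. ZNRF3 and RNF43 were thus the densest of the 10 genes in both lists.

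By position, sites in introns of the genes were the most frequent class, with 24 of 63 in the basal list (13 shared, 11 basal-only) and 18 of 49 in the overexpression list (14 shared, 4 overexpression-only). Own promoters, meaning a site centre within 1 kb of an annotated transcript start of the gene, held 10 basal sites (8 shared, 2 basal-only) and 12 overexpression sites (8 shared, 4 overexpression-only). Promoters of other genes in the windows held 10 (6 shared) and 7 (6 shared). The bodies of other coding genes held 12 basal sites, 7 of them basal-only, and 9 overexpression sites, 4 of them overexpression-only. Intergenic sites numbered 6 in the basal list, of which 5 were basal-only, and 3 in the overexpression list, of which 2 were overexpression-only, and 1 basal site lay in an exon of LGR5. The condition-only share of each class was not computed over the whole lists, so these counts have no background. Within 1 kb of any start lay 20 of 63 basal sites (31.7%, 20.6 to 44.7) and 19 of 49 overexpression sites (38.8%, 25.2 to 53.8), close to the 34.3% and 39% of the whole lists.

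**Figure D2:**
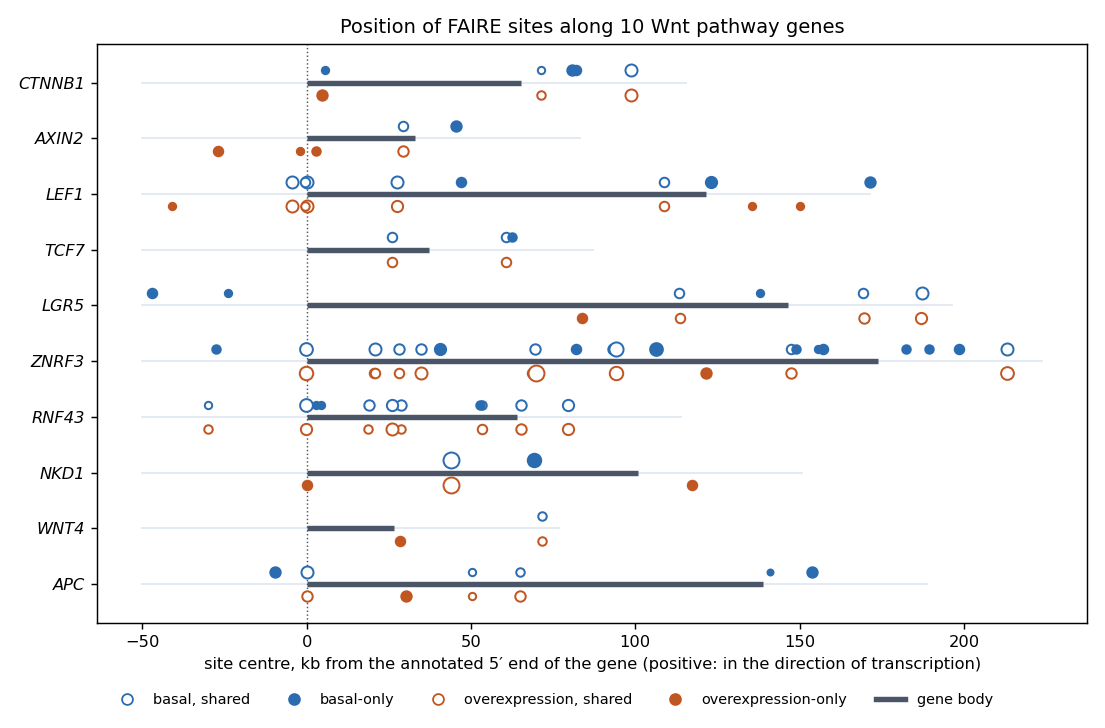
Distance of each site centre from the annotated 5′ end of its gene in kb (x axis, positive in the direction of transcription) for each gene (y axis). Basal sites are blue and above the line, overexpression sites orange and below it, open circles are shared and filled circles condition-only, the circle area grows with site width (99 to 699 bp), the thick line is the gene body and the thin line the window. Filled blue circles crowd the body and downstream flank of ZNRF3.

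A site at the own promoter was present for 6 of the 10 genes in the basal list (CTNNB1, LEF1, TCF7, ZNRF3, RNF43, APC) and for 8 in the overexpression list, which had AXIN2 and NKD1 as well. Over coding genes the shares were 46.2% and 48.5%. Genes with any own-promoter site in the overexpression list and none in the basal list were thus 2 of 10 (7.16% of coding genes), and the reverse held for 0 of 10 (4.92% of coding genes). Counted by site, overexpression-only own-promoter sites lay at 4 genes (CTNNB1, AXIN2, NKD1, APC) and basal-only ones at 2 (CTNNB1, RNF43). The share of coding genes was not computed for this count by site, and the 7.16% and 4.92% do not apply to it. Annotated starts ranged from 2 (NKD1) to 48 (CTNNB1), and more starts leave more room for an own-promoter site. LGR5 and WNT4 had no own-promoter site in either list. Members are few, and these counts describe the 10 genes.

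CTNNB1, which encodes β-catenin itself (chr3:41236232-41301587, plus strand), had 5 basal and 3 overexpression sites, of which 2 were shared. At its promoter the lists differed. The overexpression list held a site of 299 bp at chr3:41240801-41241099, whose centre lay 11 bp from an annotated start and which covered 245 of the 300 bases of the RefSeq promoter. Its GC content was 71.9%, and its peak number stood at 8.44% of the list (the place, where a low percentage is early and wider sites tend to come first). The basal list had no site over that promoter, and its nearest one lay 552 bp downstream at chr3:41241651-41241799, in an untranslated part of an exon, with a width of 149 bp, a GC content of 37.6% and a place of 83.2%. The remaining sites lay beyond the gene in the body of ULK4. The widest of them was shared (chr3:41334701-41335099, 399 bp in both lists, basal place 2.74%, overexpression place 6.6%), and the widest basal-only one (chr3:41316801-41317099, 299 bp) held 2 TCF/LEF motifs. Motifs of single sites, here and below, were counted in 300 bp around the site centre, which can differ from the site itself.

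APC, a scaffold of the destruction complex (chr5:112043215-112181936, plus strand), showed the same arrangement at one of its 2 promoters with RefSeq entries. The upstream promoter carried a shared site (chr5:112042951-112043349, basal, place 23.5%, and chr5:112043051-112043349, overexpression, place 18.3%). The downstream promoter carried a site in the overexpression list alone, at chr5:112073401-112073699 (299 bp, GC 65.6%, place 6.41%), which covered 231 of the 300 RefSeq bases. The nearest basal site to it lay 19702 bp away. In total APC had 6 basal sites, 3 of them basal-only, and 4 overexpression sites. The widest basal-only sites, of 299 bp each, lay upstream of the gene (chr5:112033501-112033799, place 28.3%) and at a promoter of SRP19 (chr5:112196751-112197049, place 58.4%), and the widest shared site elsewhere in intron sequence (chr5:112107901-112108199 in the overexpression list). That intron site had an SF-1 and an AP-1 motif and stood at place 71.8% among basal and 24.2% among overexpression sites. No APC site held a TCF/LEF motif.

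AXIN2, the inducible scaffold and a standard readout of the pathway (chr17:63524681-63557766, minus strand), had 2 basal and 4 overexpression sites. The shared site lay in an intron (chr17:63528301-63528549 in the basal list, place 27.8%, and chr17:63528301-63528599 in the overexpression list, place 37%). It had both a TCF/LEF and an SF-1 motif in 300 bp around its centre, but the basal interval itself held the SF-1 motif alone. Of the 3 overexpression-only sites, one lay 153 bp from an internal start of the gene at chr17:63554901-63555099 (199 bp, place 63.5%), with a TCF/LEF motif. The widest elsewhere was at chr17:63584651-63584899 (249 bp, place 58.9%), upstream of AXIN2, and held a TCF/LEF motif too. The basal-only site, 299 bp at chr17:63512301-63512599 downstream of the gene, held one as well.

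NKD1, a target gene whose product restrains the dishevelled relay (chr16:50582307-50683160, plus strand), had 2 basal and 3 overexpression sites. A shared site of 699 bp with identical ends in both lists lay in an intron (chr16:50625851-50626549, basal place 3.55%, overexpression place 12.7%). It had 2 SF-1 motifs in 300 bp around its centre and 3 over its whole length. The basal-only site, at chr16:50651101-50651599, was 499 bp wide and stood at 2.02% of the basal list, with 2 TCF/LEF motifs and no overexpression site nearer than 24552 bp. An overexpression-only site was at chr16:50699351-50699599 (249 bp, place 77.6%), downstream of the gene. NKD1 thus held condition-only sites of both kinds at different positions along the gene.

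LEF1, a DNA-binding partner of β-catenin (chr4:108968701-109090112, minus strand), had 8 sites in each list, 5 of them shared. Its promoter carried a pair of shared sites. The one over the 5′ end (chr4:109089851-109090249 in the basal and chr4:109089801-109090199 in the overexpression list) kept its width of 399 bp and its place, 38% and 38.2%. The one just upstream (chr4:109090451-109090699 and chr4:109090501-109090699) stood at 15.3% among basal and 45.7% among overexpression sites. Elsewhere, 2 shared sites tied as widest at 399 bp under basal SF-1, each with 2 TCF/LEF motifs. One lay in an intron (chr4:109062551-109062949, place 6.26% and 12%) and was 349 bp wide in the overexpression list. The other lay at a promoter of LEF1-AS1 (chr4:109094451-109094849, place 4.74% and 10.8%) and was 399 bp wide in both. The RefSeq promoter of LEF1, at an internal start, was covered by no site in either list. The widest basal-only site (chr4:108966951-108967299, 349 bp, place 79.4%), 3′ of the gene, also had 2, whereas the 3 overexpression-only sites were 149 bp wide each and late in the list (75.2% to 95.5%). The first of these by position was chr4:108939901-108940049, in the body of HADH.

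TCF7, the other DNA-binding partner (chr5:133450372-133487556, plus strand), had 3 basal and 2 overexpression sites. An internal start, annotated for a transcript with a retained intron alone, carried a shared site with identical ends (chr5:133476251-133476499, 249 bp), at 16.5% of the basal and 42.3% of the overexpression list. The other sites lay at promoters of SKP1, a shared one (chr5:133510851-133511099, place 79.8% and 54.1%) and a basal-only one (chr5:133512601-133512799, 199 bp, place 57.4%). The shared one had a TCF/LEF motif in 300 bp around its centre but none within the site itself. Neither of the 2 RefSeq promoters of TCF7 was covered by a site in either list.

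LGR5, the R-spondin receptor (chr12:71833578-71980090, plus strand), had 6 basal and 4 overexpression sites, 3 of them shared and none at an own promoter. The widest shared site lay downstream in ZFC3H1 (chr12:72020501-72020899, 399 bp, place 20.5% and 49.7%), with a TCF/LEF, an SF-1 and an AP-1 motif. A shared site whose centre fell in an exon in the basal list (chr12:71946901-71947149) had a TCF/LEF and an SF-1 motif in 300 bp around its centre. The basal interval itself held the SF-1 motif alone. The overexpression-only site, in an intron at chr12:71917251-71917499 (249 bp, place 57%), had both in the 300 bp as well, but only the TCF/LEF motif within the site. The widest basal-only site, chr12:71786401-71786649 (249 bp, place 27.4%), lay upstream in TSPAN8 and had neither. All 3 sites of the overexpression list with a TCF/LEF motif in the 300 bp at LGR5 therefore had an SF-1 motif there also. Of these, only the ZFC3H1 site held the SF-1 motif within its own ends.

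ZNRF3, a membrane ubiquitin ligase (chr22:29279560-29453476, plus strand), had the most sites, 19 basal and 11 overexpression ones. Of these, 8 in each list were shared, 11 were basal-only and 3 overexpression-only. Over chromosome 22 as a whole the ratio went the other way, with 580 overexpression and 519 basal sites (1.12). The own promoter at the 5′ end was shared (chr22:29279101-29279549, 449 bp, place 23.9%, and chr22:29279151-29279649, 499 bp, place 26.6%), as was an internal one (chr22:29314101-29314399, place 29.2%, and chr22:29314001-29314399, place 37.6%), which held a TCF/LEF motif. The widest basal-only site lay in an intron at chr22:29385651-29386099 (449 bp, place 5.03%), with no overexpression site within 11652 bp. The widest shared site elsewhere in the overexpression list measured 699 bp (chr22:29349051-29349749) and 299 bp in the basal list (chr22:29348901-29349199), where the widest was another intron site of 549 bp (chr22:29373401-29373949). The widest overexpression-only site was the intron site at chr22:29401051-29401349 (299 bp, place 22.9%). The other overexpression-only sites lay 102 and 552 bp from a basal site, and the first of these became shared when a distance of up to 500 bp counted as such. TCF/LEF motifs were present in 9 of the 19 basal and 6 of the 11 overexpression sites.

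RNF43, the close relative of ZNRF3 (chr17:56431037-56494956, minus strand), had 11 basal and 8 overexpression sites, and all 8 were shared. The promoter at the 5′ end carried a shared site (chr17:56494951-56495399, 449 bp, place 12.8%, and chr17:56494901-56495249, 349 bp, place 27.7%), which covered 195 and 245 of the 300 bases of a RefSeq promoter. A second RefSeq promoter, chr17:56480033-56480332, was covered by no site. An internal promoter with an SF-1 motif, which rests on a transcript with a retained intron, was shared too (chr17:56441551-56441749, place 54.8%, and chr17:56441501-56441749, place 27.2%). Another own-promoter site, basal-only, was narrow and late (chr17:56492151-56492299, 149 bp, place 92.4%). The widest shared site elsewhere, an intron site with a TCF/LEF motif, was among the earliest of both lists (chr17:56468801-56469199 in the overexpression list, 399 bp, basal place 1.96%, overexpression place 5.42%). The widest basal-only site elsewhere was chr17:56442051-56442249 (199 bp, place 67.2%), 302 bp from an overexpression site.

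WNT4, the ligand needed for adrenal and gonadal development (chr1:22443806-22470462, minus strand), had 1 basal and 2 overexpression sites. The shared site, with identical ends at chr1:22398901-22399099 (199 bp, place 47.2% and 72.6%), lay at a promoter of CDC42. The overexpression-only site, chr1:22441901-22442149 (249 bp, place 41.5%), lay beyond the 3′ end of WNT4, 14319 bp from its nearest start, and had an SF-1 motif. Its RefSeq promoter, with a GC content of 85.7%, was covered by no site.

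Widths and places set the condition-only sites apart from the shared ones. Shared sites had a median width of 299 bp in both lists, and basal-only and overexpression-only sites of 249 bp each, where over the whole lists both condition-only classes had 199 bp. Median places were 26.4% for shared and 57.4% for basal-only sites in the basal list (32.7% and 67.4% over all sites), and 36.4% for shared and 58.9% for overexpression-only sites in the overexpression list (35.5% and 67.8%). Condition-only sites were thus narrower and later than shared ones near these genes, as in the whole lists. Of the 34 shared pairs, 5 had the same start and end, 12 were wider in the overexpression list, 10 were wider in the basal list and 12 had equal widths.

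Within the pairs, 8 of 34 stood earlier in the overexpression than in the basal list (23.5%, 10.7 to 41.2), where 46.8% of 18703 pairs of the whole lists did. The median difference in place, overexpression minus basal, was 5.7 percentage points (0.902 over all pairs), with a range from -61.8 to 35.6. The largest move toward the front of the overexpression list was at a site in the body of KREMEN1 in the ZNRF3 window, from 69.8% to 8.02%. The largest move toward its back was at the RNF43 intron site chr17:56476001-56476299, from 18.5% to 54.1%. Place is a rank within 1 library, the quantity behind it is not stated, and sites of 1 gene are not replicates.

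**Figure D3:**
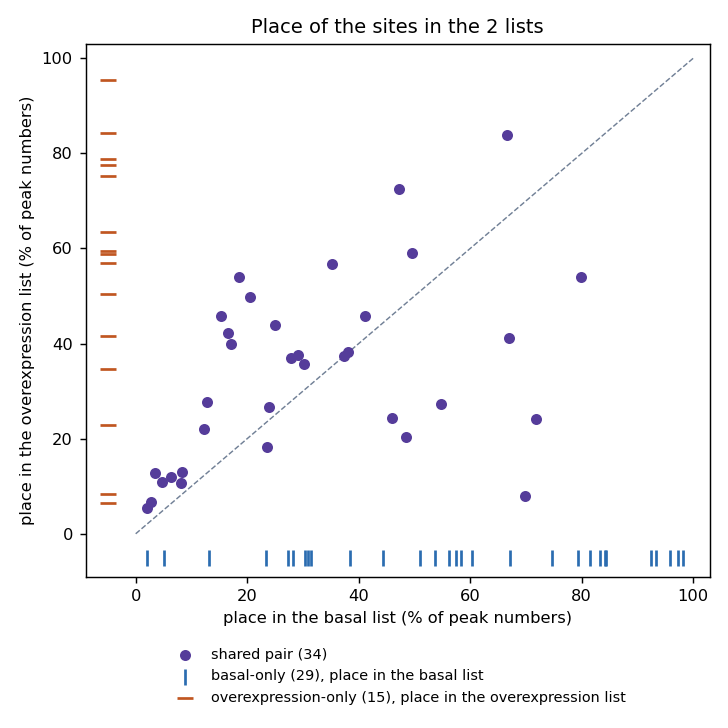
Place of the 34 shared pairs in the basal list (x axis) and in the overexpression list (y axis), both in percent of the peak numbers, low being early. Most points (26 of 34) lie above the dashed line of equal place, and ticks along the axes mark the places of 29 basal-only and 15 overexpression-only sites.

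Condition-only sites among the first 10% of a list were looked at after the values were seen. Of the 9 member sites in the first 10% of the basal list, 2 were basal-only, the NKD1 and ZNRF3 introns above (22.2%, 2.81 to 60, where 4.24% of all 3441 sites that early were basal-only). Of the 5 in the first 10% of the overexpression list, 2 were overexpression-only, the CTNNB1 and APC promoters (40%, 5.27 to 85.3, where 3.4% of 3120 were). Base composition moved with these classes. Over the whole lists the median GC content was 40.5% for basal-only and 46.5% for overexpression-only sites, and near the 10 genes it was 43.5% and 53%. For shared sites it was 53.2% and 53.5% over the basal and overexpression lists, and 46.9% and 49.4% near the 10 genes, so that overexpression-only sites had the higher median near the 10 genes and the lower one over the whole list. The overexpression-only promoter sites of CTNNB1 and APC were both above 65%, and the part of base composition in the differences between the lists was not tested.

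Because TCF and LEF factors and SF-1 bind known sequences, their motifs were counted in 300 bp around each site centre. TCF/LEF motifs were present in 26 of 63 basal sites (41.3%, 29 to 54.4) and in 21 of 49 overexpression sites (42.9%, 28.8 to 57.8). Over the whole lists the shares were 17.6% and 14.2%, below both intervals. In 300 bp of flank starting 1000 bp beyond either end, member sites held the motif in 20 of 126 windows (15.9%, 9.97 to 23.4) and 14 of 98 windows (14.3%, 8.04 to 22.8), and flanks of all sites in 10.8% and 10.4%. Weighting all sites to the GC content of the member sites gave 18.6% and 14.7%. Without ZNRF3 the shares were 38.6% (24.4 to 54.5) and 39.5% (24 to 56.6). The flank, GC and ZNRF3 comparisons were added after the data were seen, and since 34 sites of each list overlap, the lists do not count as separate evidence.

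By class, the TCF/LEF motif was present in 14 of 34 shared and 12 of 29 basal-only sites of the basal list, and 15 of 34 shared and 6 of 15 overexpression-only sites of the overexpression list. In the whole lists 14.1% of shared and 21.8% of basal-only sites had the motif, and 14% and 14.4% of shared and overexpression-only ones. By gene, ZNRF3 held 9 and RNF43 5 of the 26 basal sites with the motif, and LEF1 4. CTNNB1 and LGR5 held 2 each in that list, AXIN2 2 of its 2 sites, and TCF7 and NKD1 1 each. WNT4 and APC held none in either list. A second match was present in 9 basal and 3 overexpression sites. A match of letters is a description and does not show that a factor was bound.

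SF-1 motifs were present in 12 of 63 basal sites (19%, 10.2 to 30.9) and 12 of 49 overexpression sites (24.5%, 13.3 to 38.9), against 13.5% and 13.7% of all sites. Both intervals hold the value of the whole list. The flanks of the member sites had it in 2.38% and 3.06%. Shared sites held it in 9 of 34 cases in either list, where 12.2% and 12.3% of shared sites did over the whole lists. Basal-only sites held it in 3 of 29 (15% over the whole list) and overexpression-only sites in 3 of 15 (15.9%). None of the 4 overexpression-only own-promoter sites had an SF-1 motif, and 4 sites are too few to set against these shares. AP-1 motifs (TGAGTCA or TGACTCA), counted for comparison, were present in 7.94% and 8.16% of member sites and in 7.84% and 6.32% of all sites. Of RefSeq promoters, 6.86% held a TCF/LEF, 2.9% an SF-1 and 4.95% an AP-1 motif, and no motif overlapped another in the member sites.

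**Figure D4:**
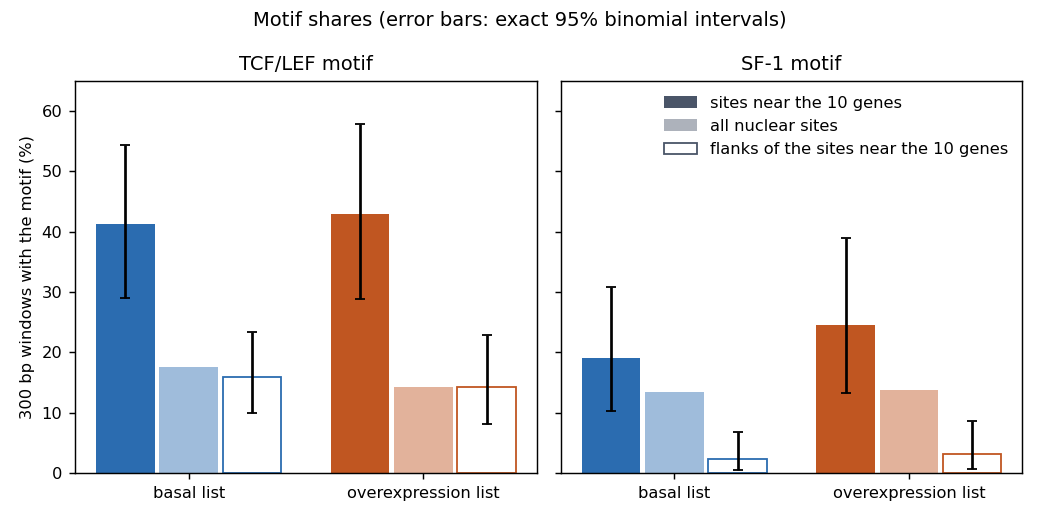
Share of 300 bp windows with a TCF/LEF motif (left) or an SF-1 motif (right) in percent (y axis), for each list (x axis), in sites near the 10 genes (dark bars), all nuclear sites (pale bars) and flanks of the sites near the 10 genes (open bars), with exact 95% binomial intervals. TCF/LEF motifs were present in 41.3% and 42.9% of member sites, with lower interval ends above the values of all sites.

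To place the 10 genes in the pathway, 79 other Wnt genes were counted in 5 lists by role. Of these, 53 had a basal-only site (67.1%, against 60.7% of coding genes) and 49 an overexpression-only site (62%, against 60.6%). A basal own-promoter site was present for 28 (35.4%, against 46.2%) and an overexpression one for 33 (41.8%, against 48.5%). An own-promoter site in the basal list and none in the other was found for 5 (6.33%, against 4.92%), and the reverse for 10 (12.7%, against 7.16%). The 16 secreted and membrane inhibitors had 31 basal-only sites of 60 basal sites in their windows, and 6 overexpression-only sites of 35 overexpression sites. Over the whole lists, 45.8% of basal and 40.3% of overexpression sites were condition-only. Among the inhibitors, SFRP4, NOTUM, KREMEN1 and KREMEN2 had an own-promoter site in the basal list alone, and DKK1 in the overexpression list alone. WIF1, a secreted ligand trap, accounted for 8 of the basal-only sites and had 9 basal sites and 1 overexpression site. KREMEN1, a receptor for DKK proteins, accounted for 6 and is the downstream neighbour of ZNRF3, so that sites near KREMEN1 were counted in the ZNRF3 window too (10 over both lists). Its 6 basal-only sites were all among the 11 basal-only sites of ZNRF3. The basal-only sums of the inhibitors and of the 10 genes thus hold these 6 sites in common.

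The 21 receptors and agonists had 26 basal-only sites of 52 basal sites, and 40 overexpression-only sites of 66 overexpression sites. LRP6, the frizzled co-receptor, had 1 basal site and 9 overexpression sites, all condition-only, one of them at its own promoter. Own-promoter sites in the overexpression list alone were present also for FZD3, FZD9, ROR1 and RYK, and in the basal list alone for FZD6. The 20 ligands and export genes had 18 of 56 and 22 of 60 sites condition-only in the basal and overexpression lists. WNT5A, WNT10B and WNT11 had an own-promoter site in the overexpression list alone. WNT5A was among the genes with the densest basal-only sites (4 in its window), while WNT1 and WNT10B, which had 4 overexpression-only sites each, are neighbours and share sites. The 13 genes of the cytoplasmic relay had 21 of 65 and 16 of 60. TNKS2, a tankyrase that acts on axin, had an own-promoter site in the overexpression list alone. The 9 nuclear partners had 17 and 16. Of these genes, 8 had a basal own-promoter site (46.2% of coding genes) and 8 an overexpression one (48.5% of coding genes). They were the same 8 genes, and the share of coding genes with own-promoter sites of both kinds is not given here. The roles were not compared by a test, and windows of neighbouring genes overlap.

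**Figure D5:**
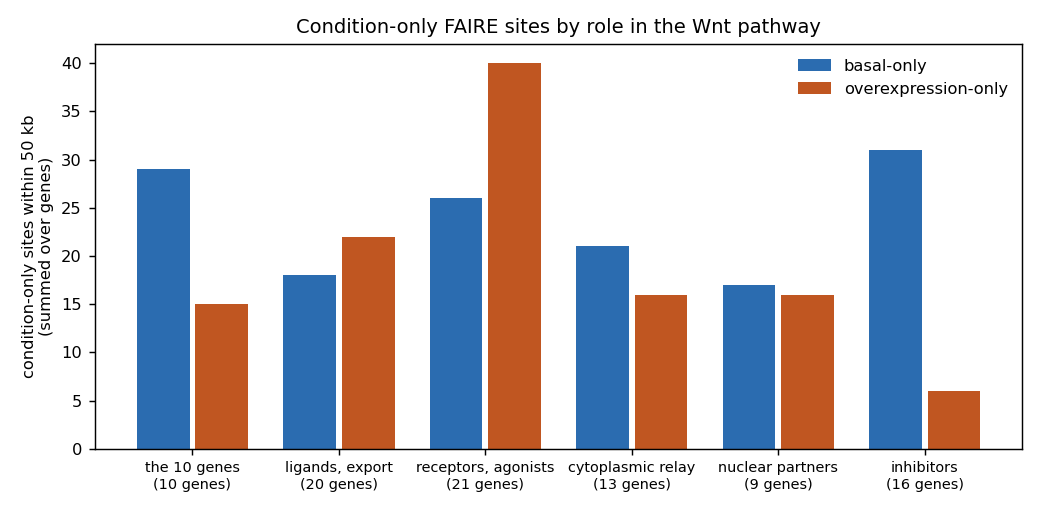
Number of basal-only (blue) and overexpression-only (orange) sites within 50 kb, summed over the genes of each role (y axis), for the 10 genes and 5 lists of other pathway genes (x axis, with the number of genes). Inhibitors had 31 basal-only of 60 basal sites and 6 overexpression-only of 35 overexpression sites. The 6 basal-only sites near KREMEN1 are counted both there and, through ZNRF3, among the 10 genes. Receptors and agonists had 26 of 52 and 40 of 66, where 45.8% and 40.3% of the whole lists were condition-only.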

How the data were processed

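FAIRE sites of 2 libraries, 1 for each SF-1 condition, were taken as the authors deposited them, without the input DNA. Per the submitters' processing notes, CASAVA 1.8 and build hg19 were used, whereas the aligner, caller and threshold for FAIRE are not given in the sources used here. The score the authors deposited was 1000 at every site and holds no height, so width and peak number (place, in percent of the list) were used. Starts lay on a grid of 50 bp, and coordinates are 1-based.

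Genes were those of GENCODE release 44 on GRCh37. Sites within 50 kb of a gene body were kept and classed by their centre as own promoter (1 kb), promoter of another gene, exon, intron, body of another coding gene or intergenic. RefSeq promoters (GRCh38) were placed by exact match for 6 genes. Motifs were sought in 300 bp on both strands. Every own-promoter site and, elsewhere in a window, the widest site of each class per gene were named, and other sites given by position were chosen after the values were seen. The details of 1 site are not reported here. Other pathway genes were named for their density of condition-only sites (3 of each kind) or an own-promoter site in 1 list alone. Members and lists were chosen with earlier results of these data known. Python 3.11.15, numpy 2.4.6 and scipy 1.17.1 were used, and the counting was tested on simulated data.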

Additional observations from a re-analysis of the deposited data

How the results depend on the processing

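For 16 results, 98 alternative values were computed, of which 6 (sites near ZNRF3 left out) were added after the data were seen. None moved beyond its counting interval, or 1.5 times for a count. Sites near the 10 genes numbered 44 to 87 in the basal list and 36 to 71 in the overexpression list over windows of 10 and 100 kb, equal list lengths and wide sites. Shared sites made up 52.4% to 59.1% and 67.3% to 72.2%, and TCF/LEF shares were 33.3% to 47.6% and 32.4% to 44.9%, lowest with the window of 100 kb. Sites near a start were fewest with starts of 500 bp or of coding transcripts alone, at 22.2% and 26.5%. Genes with an own-promoter site numbered 5 to 6 and 7 to 8, and with starts of coding transcripts alone TCF7 lost its own. No paired analysis was possible because each condition had 1 library and no result came from a test. The lists give no read counts, so that depth limits which sites could be called in either library to an unknown extent.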
